A study of Mus musculus with 2 samples.

Results

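Cxcr3, Cxcr4 and Cxcr6 are the 3 CXC chemokine receptor genes described here, in CD4 T cells of mouse fat and spleen. They were found by symbol in both raw count matrices, as 3 of 55487 genes. The cells came from male C57BL/6J mice of wild-type genotype, 8 weeks old, and were sorted as DAPI- TCRb+ CD3+ CD4+ cells, with no gene deleted and no treatment named. The tissues were brown (BAT), subcutaneous (SAT) and visceral (VAT) adipose tissue and spleen. Each of 2 libraries, called experiments 1 and 2, pooled 8 hashed samples, that is, samples marked with an oligonucleotide-tagged antibody before pooling, so that each tissue had 4 hashed samples: replicates 1 and 2 in experiment 1, replicates 3 and 4 in experiment 2. The labels call the hashed samples of an experiment biological duplicates and do not say how many mice were pooled in each. Fat was digested with collagenase II and spleen was dissociated mechanically, so tissue and dissociation cannot be told apart.

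Chemokine receptors are membrane proteins that signal through inhibitory G proteins and direct cell migration along chemokine gradients. CXCR3 binds the interferon-induced ligands CXCL9, CXCL10 and CXCL11 and is a hallmark of Th1 cells, the CD4 subset driven by the transcription factor T-bet (Tbx21). CXCR4 binds CXCL12, which retains cells in bone marrow and lymphoid organs, and is found on naive and memory T cells alike. CXCR6 binds CXCL16, a transmembrane chemokine of myeloid and stromal cells, and is typical of T cells that reside in tissue. Foxp3 is the lineage factor of regulatory T (Treg) cells, and a Treg subset shares CXCR3 with Th1 cells.

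In the annotation of the files' build (mm10, GENCODE vM21) Cxcr3 (ENSMUSG00000050232.6) lies on the minus strand of chromosome X, at 101731535 to 101734269, with 2 exons. Cxcr4 (ENSMUSG00000045382.6) lies on the minus strand of chromosome 1, at 128588199 to 128592293, and Cxcr6 (ENSMUSG00000048521.8) on the plus strand of chromosome 9, at 123806475 to 123811760. Cxcr6 sits inside the span of Fyco1 (123789500 to 123851899), which is read from the other strand. The strand setting of the authors' counting is not given in the sources used here.

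The bases just before the RefSeq start of each gene (GRCm38.p6, transcribed strand) are shown because Cxcr3 and Cxcr6 were found at high levels in the same samples while Cxcr4 was not. The windows are chrX:101734270-101734397, chr1:128592300-128592549 and chr9:123806227-123806474, and bases of annotated transcripts were left out. Capitals mark matches to the GC box GGGCGG (read here from the other strand as CCGCCC) and the TATA box TATAAA with its overlapping reverse match TTTATA.
Cxcr3: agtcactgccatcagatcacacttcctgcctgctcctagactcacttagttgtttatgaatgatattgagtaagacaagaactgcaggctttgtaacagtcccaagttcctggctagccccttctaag
Cxcr4: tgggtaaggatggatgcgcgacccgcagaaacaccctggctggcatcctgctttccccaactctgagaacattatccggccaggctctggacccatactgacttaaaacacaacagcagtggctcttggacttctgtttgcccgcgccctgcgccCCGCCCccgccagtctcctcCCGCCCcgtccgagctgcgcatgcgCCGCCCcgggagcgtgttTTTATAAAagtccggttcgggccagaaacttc
Cxcr6: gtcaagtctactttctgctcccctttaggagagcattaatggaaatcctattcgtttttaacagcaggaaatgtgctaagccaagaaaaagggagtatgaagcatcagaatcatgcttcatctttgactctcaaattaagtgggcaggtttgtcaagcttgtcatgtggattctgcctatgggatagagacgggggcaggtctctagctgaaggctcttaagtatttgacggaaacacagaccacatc
Over the full 250 bases before the start, which for Cxcr3 include 122 and for Cxcr6 2 transcribed bases not printed, Cxcr4 had 61.2% G and C and 19 CpG dinucleotides, Cxcr3 48.0% and 3, and Cxcr6 43.6% and 3. The medians of 27025 promoters were 52.0% (quartiles 44.8% and 60.8%) and 5 CpG. Searched on both strands, Cxcr4 held 3 GC boxes, at 95 to 90, 75 to 70 and 50 to 45 bases before the start, and a TATA box at 30 to 25 bases, which shares bases with a reverse match at 32 to 27. A GC box was present in 32.7% and a TATA box in 12.9% of all promoters. The T-box motif GGTGTGA (3.30% of promoters), the FOXO site GTAAACA (3.12%), the STAT site TTCNNNGAA (7.11%) and the E-box CACGTG (5.93%) matched none of the 3 windows.

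The libraries held 4485 and 12239 barcodes with 29153747 and 43879975 gene UMIs (unique molecular identifiers, each counting 1 captured RNA molecule). Cells with at least 500 genes and 1000 UMIs and under 10% mitochondrial UMIs numbered 3985 and 9004, with median depths of 6107 and 4306.5 UMIs. After hashtag calling and removal of other cell types, 9180 T cells of 1 hashed sample each remained, 252 to 936 per sample. In them Trbc2 was detected in 97.5% to 99.8% and Cd3g in 94.8% to 99.5% of the cells of each sample, and Cd4 in 43.7% to 71.1%. Of the CD8 T cell genes Cd8a reached at most 1.99% and Cd8b1 8.00% of a sample's cells, and the gamma-delta T cell gene Trdc 5.08%. The B cell genes Cd79a and Ms4a1 reached 1.90% and 0.32%, the myeloid genes Lyz2 and Csf1r 6.79% and 1.20%, the fibroblast gene Col1a1 2.78%, the adipocyte gene Adipoq 0.26% and the erythroid gene Hbb-bs 26.2% (at least 3.34%). Their part in the results was not tested. The libraries shared 20 barcodes, 9 after filtering. The hashtags of SAT replicate 1 and BAT replicate 4 separated poorly from background (1.99 and 2.73 standard deviations, and a stricter call kept 12 of 427 and 233 of 513 cells of these 2 samples), and results are given below without them.

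Cells with at least 1 Foxp3 UMI (638 Foxp3-positive cells, 16 to 69 per sample) were compared with those without (8542 Foxp3-zero cells). Foxp3 is itself caught incompletely, so the Foxp3-zero class also holds Treg cells. The Foxp3-positive class in turn holds cells outside the Treg-like clusters described below, above all in BAT. Detection means at least 1 UMI of the receptor in a cell. Since depth differed between cells, each share was also computed as its expectation after thinning every cell to 1300 UMIs, which left out 202 shallower cells. A cluster of 90 stromal cells with a median of 3775 UMIs is given as a reference outside the T cells. In it 5.56% of cells had a Cxcr3 UMI (95% exact binomial interval 1.83% to 12.5%), 3.33% a Cxcr4 UMI and 2.22% a Cxcr6 UMI (0.27% to 7.80%). After thinning these shares were 4.01%, 1.86% and 1.49%. The other clusters outside the T cells gave wider values: Cxcr3 was detected in 4.88% of 41 B-like, 21.7% of 46 myeloid-like and 22.4% of 76 erythroid-like cells, Cxcr4 in 26.8%, 37.0% and 11.8%, and Cxcr6 in 9.76%, 4.35% and 17.1%. Their median depths were 5476, 10015.5 and 1442.5 UMIs. The BAT means of Cxcr3 and Cxcr6 given below lie inside these ranges. Whether the UMIs in these clusters, the stromal cluster included, come from free RNA, doublets or the cells themselves was not tested. The intervals cover counting error only.

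Cxcr3, the interferon-chemokine receptor, was detected at high shares in Foxp3-zero cells of SAT and VAT and at low shares in BAT and spleen. In SAT its shares were 68.2%, 54.1%, 39.7% and 57.7% in replicates 1 to 4, and in VAT 54.1%, 56.7%, 40.3% and 44.7%. In BAT they were 7.42%, 9.89%, 15% and 10.6%, and in spleen 6.21%, 9.84%, 6.68% and 6.45%. Every SAT and VAT sample was above every BAT and spleen sample, SAT and VAT overlapped with each other, and BAT overlapped with spleen. The means were 54.9% ± 11.8 (SD, n = 4) in SAT, 49.0% ± 7.75 in VAT, 10.7% ± 3.17 in BAT and 7.29% ± 1.71 in spleen, and after thinning 25.5% ± 4.47, 22.2% ± 1.90, 4.47% ± 2.30 and 2.49% ± 0.34, so the order held at equal depth. The thinned spleen value lay below the thinned stromal value of 4.01%, and 3 of the 4 unthinned BAT values and all unthinned spleen values lay inside the stromal interval.

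Cxcr6, the receptor of tissue-resident T cells, followed the same order. Its shares in Foxp3-zero cells were 53.5%, 44.6%, 32.7% and 44.0% in SAT and 46.3%, 45.2%, 28.1% and 33.0% in VAT. They were 6.57%, 8.52%, 10.5% and 8.54% in BAT and 3.10%, 5.85%, 3.66% and 3.51% in spleen. Here all 4 BAT samples were also above all 4 spleen samples, while SAT and VAT overlapped. All 4 spleen values and that of BAT replicate 1 lay inside the stromal interval of Cxcr6. The means were 43.7% ± 8.53, 38.1% ± 9.04, 8.53% ± 1.60 and 4.03% ± 1.24 in SAT, VAT, BAT and spleen, and 20.9% ± 3.41, 17.1% ± 3.11, 3.81% ± 1.34 and 1.67% ± 0.46 after thinning.

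Cxcr4, the CXCL12 receptor, varied far less between tissues. Its shares in Foxp3-zero cells were 23.1%, 24.5%, 16.6% and 22.9% in BAT and 19.2%, 30.5%, 10.7% and 21.6% in SAT. They were 24.3%, 24.9%, 15.2% and 10.8% in VAT and 15.9%, 18.1%, 6.02% and 12% in spleen. All tissues overlapped, and the spread within a tissue was as wide as the differences between tissues. BAT had the highest mean (21.8% ± 3.51), followed by SAT (20.5% ± 8.12), VAT (18.8% ± 6.94) and spleen (13% ± 5.28). After thinning they were 6.94% ± 0.88, 6.64% ± 2.29, 5.53% ± 1.62 and 3.37% ± 1.1, and BAT no longer overlapped with spleen.

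In Foxp3-positive cells Cxcr3 again had its highest mean in SAT, with shares of 68.2%, 42.1%, 37.8% and 46.4%, followed by VAT with 32.7%, 36.4%, 42.0% and 27.3%. BAT had 17.2%, 6.25%, 31.2% and 23.1% and spleen 20%, 6.12%, 10.0% and 9.62%. SAT and VAT samples lay above all spleen samples, SAT above all BAT samples, and VAT overlapped with BAT and with SAT. The means were 48.6% ± 13.5 in SAT, 34.6% ± 6.21 in VAT, 19.5% ± 10.5 in BAT and 11.4% ± 5.97 in spleen, from few cells in BAT (16 to 29 per sample). Without SAT replicate 1, whose hashtag separated poorly, the SAT mean was 42.1% ± 4.30 (n = 3). Under the stricter hashtag call, which left 1 Foxp3-positive cell in that sample, the means were 33.9% in SAT and 33.7% in VAT. Cxcr6 was detected in 22.7%, 15.8%, 18.9% and 16.1% of Foxp3-positive cells in SAT and in 30.8%, 22.7%, 23.2% and 9.09% in VAT. It was found in 6.90%, 0%, 6.25% and 0% in BAT and in 4%, 6.12%, 0% and 1.92% in spleen. The zeros were 0 of 16 and 0 of 26 cells in BAT replicates 2 and 4 and 0 of 60 in spleen replicate 3, which allow shares of up to 18.8%, 11.5% and 5% (3 counts). SAT and VAT samples lay above all BAT and spleen samples. For Cxcr4 the Foxp3-positive shares of BAT were 31.0%, 50.0%, 25% and 38.5% and those of spleen 32.0%, 24.5%, 8.33% and 15.4%. SAT had 34.1%, 26.3%, 21.6% and 28.6%, and VAT 42.3%, 40.9%, 18.8% and 18.2%. No tissue stood apart for Cxcr4 in this class.

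**Figure D1:**
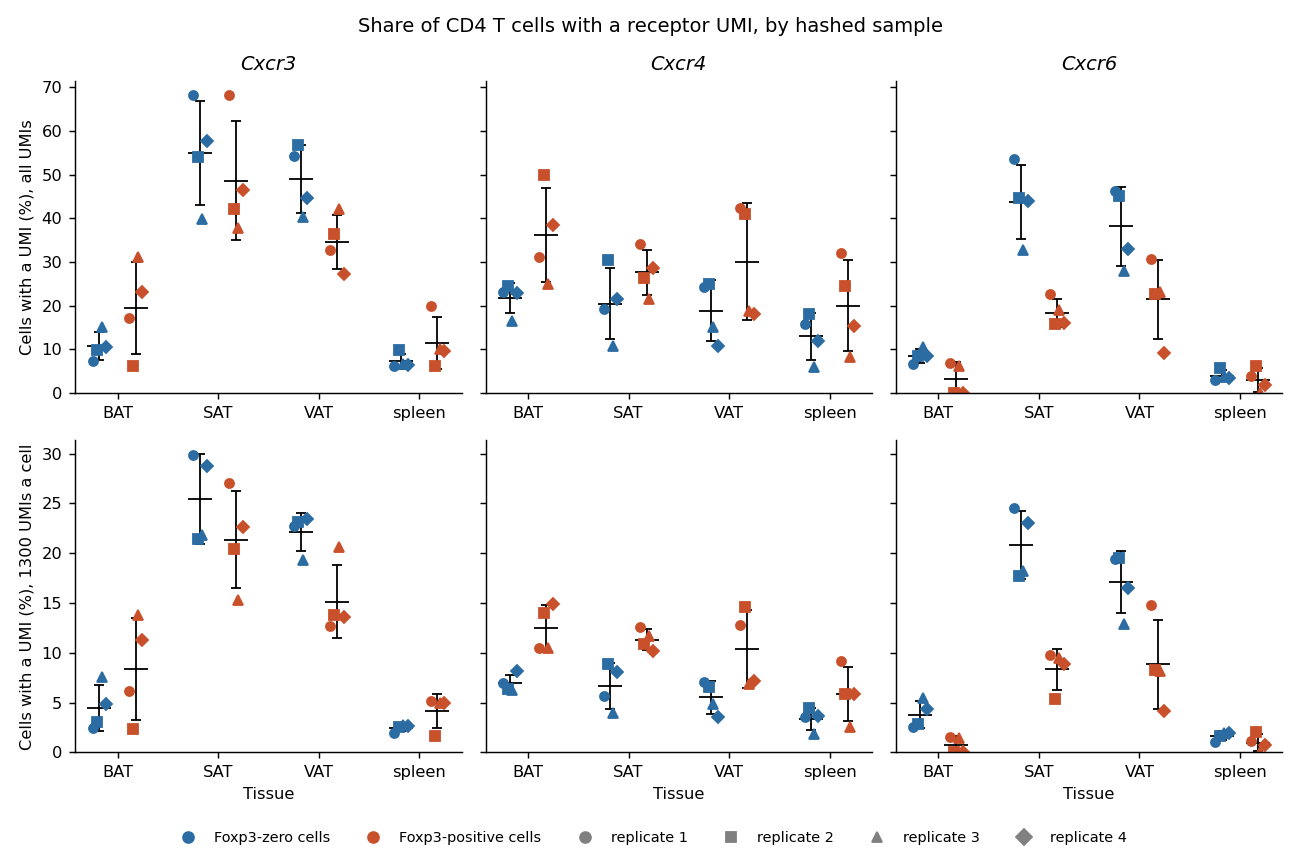
Share of T cells with at least 1 UMI of each receptor (y axis, %) in each hashed sample of BAT, SAT, VAT and spleen (x axis), for Foxp3-zero and Foxp3-positive cells, with all UMIs (upper row) and as the expectation after thinning to 1300 UMIs a cell (lower row). Lines with bars are the mean ± SD of the 4 hashed samples. With all UMIs Cxcr3 and Cxcr6 stand high in SAT and VAT (means of 54.9% and 49.0%, and 43.7% and 38.1%, in Foxp3-zero cells), while the Cxcr4 points of all tissues overlap. After thinning, the Cxcr4 points of BAT and spleen no longer overlap in Foxp3-zero cells.

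The tissue differences in the shares were tested by exact 2-sided permutation of tissue labels within experiments. The design allows 36 orders and no p below 0.0556, which becomes 0.111 after Benjamini-Hochberg adjustment over the 36 combinations of gene, class and tissue pair, so no share could pass the 0.05 threshold. With all UMIs the ranges of 2 tissues did not overlap in 16 of the 36 combinations, all of them for Cxcr3 or Cxcr6. Over the genes detected on average in at least 1% of cells, 13.7% of such combinations were without overlap in Foxp3-zero and 5.24% in Foxp3-positive cells. After thinning, 19 of the 36 receptor combinations were without overlap, and the share over all genes was not computed for thinned data. In Foxp3-zero cells Cxcr3 differed between SAT and spleen by 47.6 percentage points (53.1 in experiment 1 and 42.1 in experiment 2) and between VAT and spleen by 41.7 points (47.4 and 35.9). Cxcr6 differed by 39.7 points between SAT and spleen (44.6 and 34.7) and by 34.1 points between VAT and spleen (41.3 and 26.9). BAT exceeded spleen by 4.50 points for Cxcr6 (3.07 and 5.93) and by 3.45 points for Cxcr3 (0.63 and 6.27; exact permutation p = 0.111). Without SAT replicate 1 the SAT means in Foxp3-zero cells were 50.5% ± 9.50 for Cxcr3 and 40.4% ± 6.72 for Cxcr6 (n = 3), and without BAT replicate 4 the BAT means were 10.8% ± 3.89 and 8.53% ± 1.96.

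Among detecting Foxp3-zero cells of SAT, Cxcr3 gave a mean of 2.49 UMIs a cell (at most 16) and 33.4% of them had a single UMI. Cxcr6 gave 2.72 UMIs (at most 16), with 34.6% at a single UMI, and Cxcr4 1.38 UMIs (at most 5), with 72.9% at a single UMI. A Cxcr4 call rested on 1 molecule in 72.9% (SAT) to 83.8% (spleen) of detecting Foxp3-zero cells of a tissue.

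Raw UMIs were also summed per hashed sample and class and tested over all genes. In Foxp3-zero cells Cxcr3 stood at 285, 201, 225 and 295 CPM (UMIs of the gene scaled to all UMIs of the sum) in SAT and at 214, 220, 183 and 221 in VAT. It stood at 27.0, 33.4, 74.4 and 49.2 CPM in BAT and at 15.9, 25.5, 22.5 and 24.0 in spleen. All BAT sums were above all spleen sums on this scale. Cxcr6 stood at 240, 170, 209 and 247 CPM in SAT, 197, 196, 128 and 178 in VAT, 29.6, 30.6, 58.8 and 52.2 in BAT, and 8.23, 23.2, 22.7 and 24.4 in spleen. For Cxcr4 the BAT sums stood at 54.7, 51.7, 48.3 and 64.8 CPM and the spleen sums at 28.3, 32.9, 13.6 and 26.8. SAT gave 45, 67.6, 29.2 and 63.6 CPM and VAT 57.3, 51.2, 36.7 and 26.3. BAT sums of Cxcr4 lay above all spleen sums, and those of SAT and VAT overlapped with spleen. In sums over cells, fewer cells of an expressing type and less RNA per cell cannot be told apart.

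edgeR's quasi-likelihood test with experiment as covariate (16 sums, 10249 genes) called all 3 receptors higher in SAT than in spleen, where 21.3% of genes were called higher (40.3% in either direction). The log2 fold changes were 3.39 ± 0.18 (SE) for Cxcr3 (adjusted p = 3.89e-13), 3.27 ± 0.19 for Cxcr6 (2.4e-12) and 0.92 ± 0.22 for Cxcr4 (0.0019). All 3 were also called higher in VAT than in spleen (19.7% of genes higher, 37.2% either way), at 3.15 ± 0.18, 2.98 ± 0.19 and, for Cxcr4, 0.67 ± 0.23 (adjusted p = 0.0215). The Cxcr4 difference between VAT and spleen was not called with DESeq2 (adjusted p = 0.077), after thinning (0.085), without spleen replicate 3 (0.113) or without VAT replicate 1 (0.078), over a range of 8.7e-07 to 0.113 in 24 alternatives. All tested genes together had a median of -0.01 in both comparisons. BAT against spleen called few genes (4.80% higher, 8.15% either way) but all 3 receptors, with changes of similar size: 1.08 ± 0.22 for Cxcr3 (adjusted p = 0.0021), 1.14 ± 0.22 for Cxcr4 (0.0017) and 1.06 ± 0.23 for Cxcr6 (0.0049). After thinning, Cxcr3 in this comparison was 0.66 with an adjusted p of 0.139 (range 1.1e-16 to 0.139). Without SAT replicate 1, SAT against spleen gave 3.28 for Cxcr3, 3.19 for Cxcr6 and 1.03 for Cxcr4, and without BAT replicate 4, BAT against spleen gave 1.08, 0.99 and 0.99, all still called. Within experiment 1 the unthinned Cxcr3 shares of BAT and spleen differed by 0.63 points, as given above.

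Between SAT and VAT none of the 3 receptors was called, in a comparison that called 4.45% of genes: Cxcr3 differed by 0.24 ± 0.13 (adjusted p = 0.379), Cxcr4 by 0.25 ± 0.21 (0.591) and Cxcr6 by 0.29 ± 0.15 (0.303). Without the filter on low counts Cxcr6 was called (0.29, adjusted p = 0.0086), alone among 24 alternatives (range 0.0086 to 0.800). BAT was below SAT by a log2 fold change of -2.31 ± 0.16 for Cxcr3 and -2.21 ± 0.18 for Cxcr6 (34.4% of genes called), and below VAT by -2.07 ± 0.16 and -1.92 ± 0.18 (31.1% called). Cxcr4 did not pass in either, at 0.22 ± 0.21 (adjusted p = 0.451) against SAT and 0.47 ± 0.21 (0.088) against VAT. In all, 13 of 18 receptor contrasts were called in Foxp3-zero cells, where the tissue pairs called from 4.45% (SAT and VAT) to 40.3% (SAT and spleen) of all genes.

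In Foxp3-positive cells 13 of the 16 sums held at least 20 cells, with 2 of them from BAT (replicates 1 and 4), and 5315 genes were tested. SAT replicate 2 (19 cells) was also left out of the fit, while the CPM values given here include it. Cxcr3 stood at 222, 177, 155 and 257 CPM in SAT, 106, 146, 168 and 155 in VAT, and 41.3, 15.5, 48.9 and 62.4 in spleen. Cxcr6 stood at 109, 80.5, 50.2 and 54.2 CPM in SAT, 209, 128, 90.5 and 51.8 in VAT, and 5.91, 21.7, 0 and 4.16 in spleen. For both receptors every SAT and VAT sum was above every spleen sum. SAT against spleen (8% of genes called) gave 2.28 ± 0.29 for Cxcr3 (adjusted p = 4.5e-06) and 3.10 ± 0.46 for Cxcr6 (4.4e-05), and VAT against spleen (10.6%) gave 1.77 ± 0.28 (7.8e-05) and 3.70 ± 0.40 (1.5e-07). Cxcr4 did not pass in either (0.97 ± 0.32, adjusted p = 0.067, and 0.74 ± 0.30, 0.136), though the first was called in 7 of 20 alternatives, among them without BAT replicate 1 or 4, SAT replicate 3 or spleen replicate 1 or 4 (0.039 to 0.049). No receptor was called between BAT and spleen (0.339% of genes) or between SAT and VAT (0.151%). Cxcr6 was lower in BAT than in SAT (-2.83 ± 0.69, adjusted p = 0.0308, 1.88% called) and in VAT (-3.43 ± 0.62, 0.0017, 2.6% called). These rest on BAT sums of 3 and 0 Cxcr6 UMIs. The first was lost under the stricter hashtag call (0.302) and without BAT replicate 1 (0.455), BAT replicate 4 (0.169) or SAT replicate 1 (0.072), in a range of 0.0018 to 0.455. The second was lost without BAT replicate 1 (0.235; range 1.1e-06 to 0.235).

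**Figure D2:**
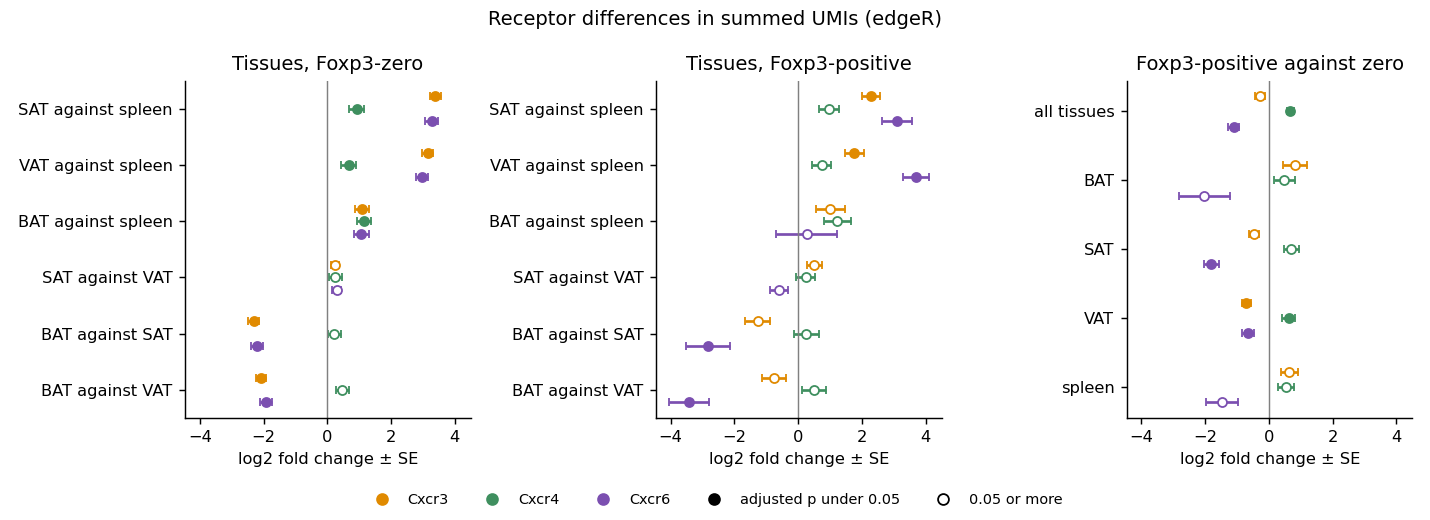
Log2 fold changes ± SE (x axis) of Cxcr3, Cxcr4 and Cxcr6 from edgeR's quasi-likelihood fits on UMI sums, between tissues in Foxp3-zero cells (left) and Foxp3-positive cells (middle), and between the classes (right); filled points have an adjusted p under 0.05. Cxcr3 and Cxcr6 lie near 3 for SAT and VAT against spleen in Foxp3-zero cells, and Cxcr4 lies between 0.67 and 1.14 for the 3 fat depots.

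Foxp3-positive and Foxp3-zero cells of the same hashed samples differed in Cxcr4 and Cxcr6 in opposite directions. Cxcr4 was detected more often in Foxp3-positive cells in 15 of 16 hashed samples, by 9.95 ± 7.36 percentage points (SD, n = 16), and in 16 of 16 after thinning, by 4.39 ± 2.52 points. Cxcr6 was detected less often in 13 of 16, by a mean of 25.3 points in SAT, 16.7 in VAT, 5.24 in BAT and 1.02 in spleen. Under the stricter hashtag call, which left 1 Foxp3-positive cell in SAT replicate 1, the mean differences in SAT were -10.9 points for Cxcr6 and -8.53 for Cxcr4, against +7.14 for Cxcr4 with all cells, and Cxcr3 was at -19.2. Cxcr3 showed no common direction, being higher in Foxp3-positive cells in 7 of 16 samples, with mean differences of +8.71 points in BAT and +4.14 in spleen against -6.30 in SAT and -14.4 in VAT. With hashed sample as block (26 sums of 13 hashed samples, 7728 genes, 16.9% called, 9.02% higher), edgeR's test gave 0.67 ± 0.12 for Cxcr4 (adjusted p = 5.6e-05), -1.11 ± 0.18 for Cxcr6 (1.8e-05) and -0.28 ± 0.14 for Cxcr3 (0.214). The calls for Cxcr4 and Cxcr6 were made in all 22 alternatives, and Cxcr3 was called in 1 of them, without the filter on low counts (-0.37, adjusted p = 0.0072; range 0.0072 to 0.908).

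By tissue, the class difference was called for Cxcr6 in SAT (-1.80 ± 0.24, adjusted p = 1.5e-07, 5.5% of genes called) and for all 3 receptors in VAT (9.4% called): Cxcr3 at -0.71 ± 0.15 (0.00027), Cxcr4 at 0.62 ± 0.20 (0.0339) and Cxcr6 at -0.64 ± 0.19 (0.0151). In VAT the Cxcr4 call was lost without VAT replicate 1 (adjusted p = 0.298), 2 (0.206) or 4 (0.077) and the Cxcr6 call without VAT replicate 2 (0.092), 3 (0.062) or 4 (0.219). The Cxcr4 call in VAT was also lost with DESeq2 (0.075), without the filter on low counts (0.098) and after thinning (0.173), and the Cxcr6 call with DESeq2 (0.596) and with library size scaling (0.079), so that they stood in 14 and 15 of 20 alternatives. Cxcr6 in SAT was lost with DESeq2 (0.085) and Cxcr3 in VAT after thinning (0.151), each in 1 of 20. In SAT, Cxcr3 was -0.48 ± 0.16 (adjusted p = 0.059) and Cxcr4 0.70 ± 0.23 (0.060). Cxcr3 in SAT was called in 5 of 20 alternatives (without BAT replicate 1 or 4, without spleen replicate 1 or 2, and without the filter; range 0.038 to 0.443). Cxcr4 in SAT was called in 4 (without SAT replicate 4, without spleen replicate 3 or 4, and with library size scaling; range 0.018 to 0.870). None was called in BAT (2.23%) or spleen (7.26%), where Cxcr3 was 0.81 ± 0.38 (0.418) and 0.64 ± 0.27 (0.155). The interaction of class with tissue called 0.923% (SAT and spleen), 1.19% (VAT and spleen), 0.0486% (BAT and spleen), 0.107% (SAT and VAT), 0.0971% (BAT and SAT) and 0.126% (BAT and VAT) of genes. It was called for 1 receptor in 1 pair: the Cxcr3 class difference was lower in VAT than in spleen by a log2 value of -1.35 ± 0.31 (adjusted p = 0.0101). After thinning that value was 0.50 with an adjusted p of 0.976, from a single random draw that left 4 Cxcr3 UMIs in the Foxp3-positive sums of spleen (41 before thinning) and 45 in those of VAT (176). The thinned shares, which are expectations over all draws, kept the direction of the unthinned ones, with mean class differences of -7.02 points in VAT and +1.68 in spleen. Without spleen replicate 3 it was -1.24 (adjusted p = 0.112) and without spleen replicate 4 -1.09 (0.205), over a range of 0.00032 to 0.976 in 20 alternatives.

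In Foxp3-zero cells Cxcr3 and Cxcr6 were found in the same cells more often than the product of their single shares in every sample, and joint detection with Cxcr4 was on both sides of the product. The share with Cxcr3 and Cxcr6 together was 43.5%, 35.6%, 24.2% and 34.4% in SAT, against products of the single shares of 36.5%, 24.1%, 13% and 25.4%. In VAT it was 35.9%, 34.6%, 20.6% and 22.8%, against 25.1%, 25.6%, 11.3% and 14.7%. The observed share was above the product in 16 of 16 samples, with ratios of the mean shares of 1.39 in SAT, 1.5 in VAT, 5.47 in BAT and 5.65 in spleen, and of 1.43, 1.63, 6.04 and 9.82 after thinning. The high ratios in BAT and spleen belong to small shares (5.21% ± 1.68 and 1.75% ± 0.56 with both). For Cxcr3 with Cxcr4 the observed share was above the product in 9 of 16 samples (ratio of the means 1.07), and for Cxcr4 with Cxcr6 in 10 of 16 (1.05). These joint shares are a description, since cells of 1 sample are not replicates.

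Seen from 1 receptor, 78.4% ± 3.05 of the Cxcr6-detecting Foxp3-zero cells of SAT also had Cxcr3, against 37.8% ± 12.8 of those without Cxcr6. The values were 74.2% ± 3.82 against 33.6% ± 5.36 in VAT, 60.1% ± 9.81 against 6.07% ± 1.90 in BAT, and 44.3% ± 14.1 against 5.79% ± 1.67 in spleen. Cxcr6 was detected in 62.6% ± 2.76 of Cxcr3-detecting cells in SAT, 57.4% ± 7.61 in VAT, 48.3% ± 4.66 in BAT and 24.2% ± 7.80 in spleen. In every sample of every tissue the share was higher among cells with the other receptor, with all UMIs and after thinning. This restates the joint shares above the product and is no separate result.

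In Foxp3-positive cells Cxcr3 and Cxcr6 together were above the product in 7 of 16 samples, with a ratio of the means of 1.06 (1.05 after thinning). BAT replicates 2 and 4 and spleen replicate 3 had no Foxp3-positive cell with Cxcr6. Their joint share and product were therefore 0, and they could not lie above the product. In SAT both were found in 18.2%, 0%, 8.11% and 5.36% of cells against products of 15.5%, 6.65%, 7.16% and 7.46%, and in VAT in 13.5%, 11.4%, 11.6% and 0% against 10.1%, 8.26%, 9.75% and 2.48%. With 19 to 69 Foxp3-positive cells in these samples, departures from the product were not resolved. The difference between the classes in this ratio was not tested.

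**Figure D3:**
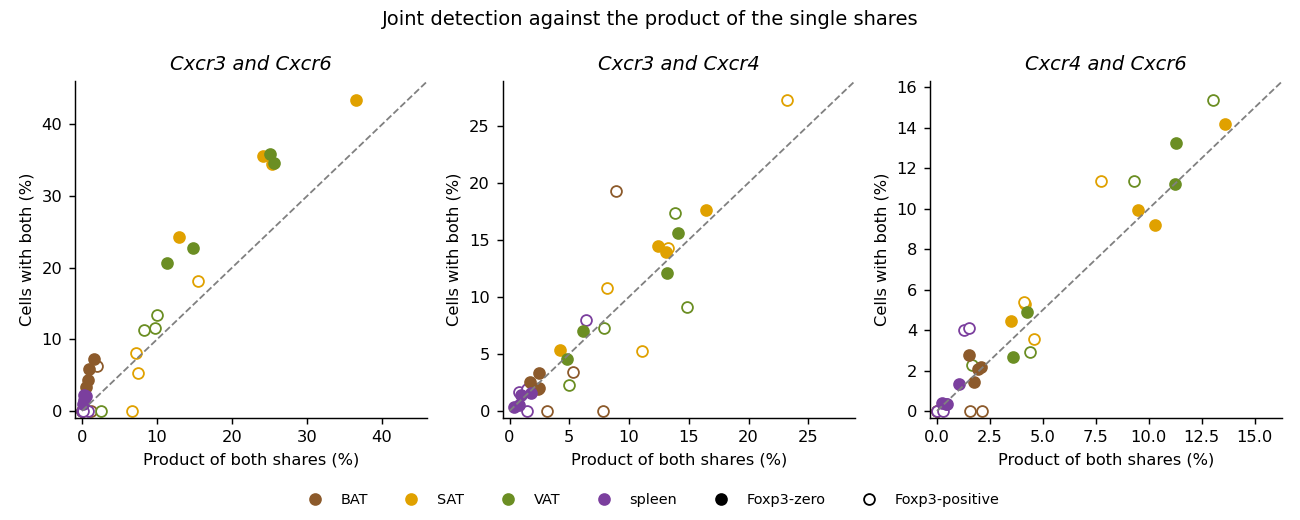
Share of cells with both receptors of a pair (y axis, %) against the product of the single shares (x axis, %), 1 point per hashed sample and Foxp3 class; the dashed line marks equality. All 16 Foxp3-zero points of Cxcr3 with Cxcr6 lie above the line, against 7 of 16 Foxp3-positive points. Of the latter, those of BAT replicates 2 and 4 and spleen replicate 3 had no Cxcr6 and could not lie above it. The points of the pairs with Cxcr4 lie on both sides of the line.

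Counted as exclusive combinations, none of the receptors was detected in 67.6% ± 2.25 of Foxp3-zero cells in BAT and 78.9% ± 6.30 in spleen, but in 29.8% ± 12.7 in SAT and 34.4% ± 9.72 in VAT. Among cells with at least 1 receptor, Cxcr3 with Cxcr6 but not Cxcr4 was the most frequent combination in SAT (26.6% ± 6.05) and VAT (22.5% ± 4.39) and held 4.06% ± 1.77 of BAT and 1.65% ± 0.48 of spleen cells. All 3 were detected together in 7.79% ± 3.23 of SAT, 5.97% ± 3.87 of VAT, 1.15% ± 0.40 of BAT and 0.095% ± 0.13 of spleen cells. Cxcr4 alone was the most frequent among cells with a receptor in BAT (18.4% ± 3.03) and spleen (11.5% ± 4.54). Among Foxp3-positive cells with a receptor, Cxcr3 alone led in SAT (30.3% ± 6.72) and VAT (19.6% ± 6.89), and Cxcr4 alone in BAT (30.5% ± 13.5) and spleen (15.1% ± 6.48).

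**Figure D4:**
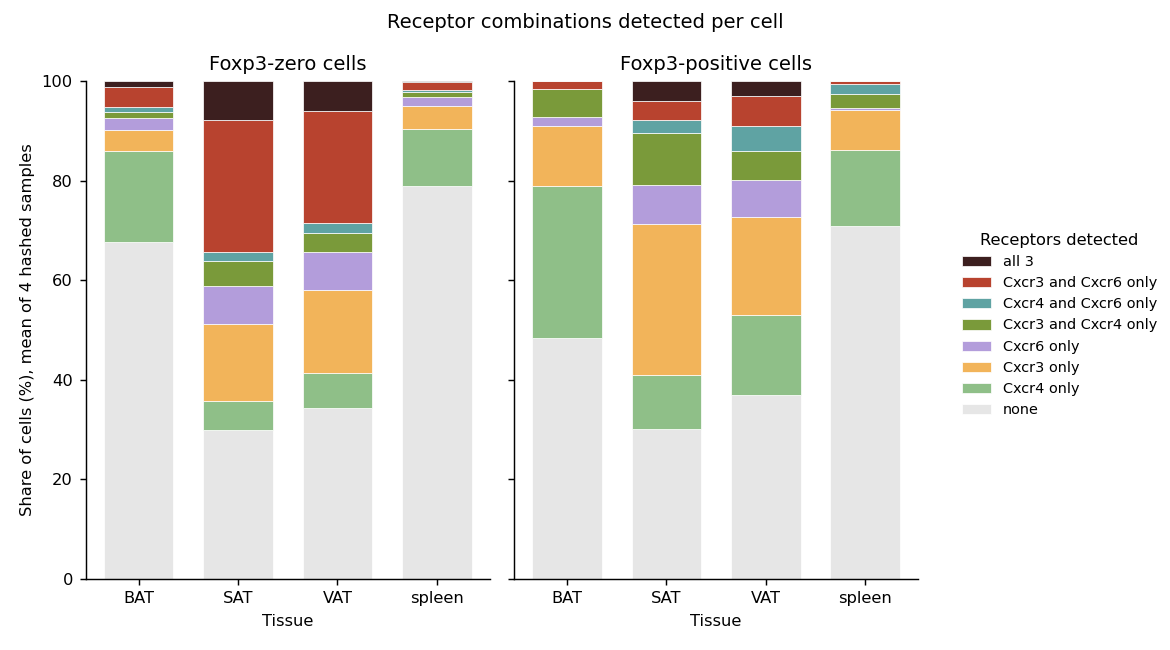
Mean share of cells (y axis, %, 4 hashed samples per bar) in each of the 8 receptor combinations, by tissue (x axis), in Foxp3-zero (left) and Foxp3-positive cells (right). The band of Cxcr3 and Cxcr6 without Cxcr4 takes 26.6% of SAT and 22.5% of VAT Foxp3-zero cells and 4.06% and 1.65% of BAT and spleen, while in Foxp3-positive cells it takes 3.95% of SAT and 6.05% of VAT.

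The T cells were divided into 15 clusters from other genes, with the 3 receptors and T cell receptor genes left out, and named from marker genes where these allowed it. Differences between clusters are descriptions, since the clusters were drawn on the same cells. Cxcr3 was detected in 80.4% of 1644 Th1-effector-like cells (with Ifng and Tbx21 among the leading genes), 80.9% of 445 NKT-like cells with Xcl1 among the leading genes and 58.4% of 500 Tfh-like cells (with Pdcd1 among the leading genes), and in 1.49% to 2.23% of naive-like cells. Cxcr6 was detected in 65.4% of Th1-effector-like and 74.2% of NKT-like (Xcl1) cells, but in 11.6% of Tfh-like cells. The Th17-like cluster (144 cells, led by Tmem176b) had the reverse, with Cxcr6 in 70.1% and Cxcr3 in 20.8%. The naive-like values of Cxcr3 and Cxcr6 were at or below those of the stromal cluster. Cxcr4 ranged only from 8.35% to 40.5% over the clusters, and the highest value belonged to cycling-like cells, which were also the deepest (median 12962 UMIs) and fell to 6.58% after thinning. In the thinned data Cxcr4 was highest in Treg-like (Areg) cells, at 10.6%. The NKT-like (Xcl1) cluster also had T cell receptor gamma genes among its leading genes.

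**Figure D5:**
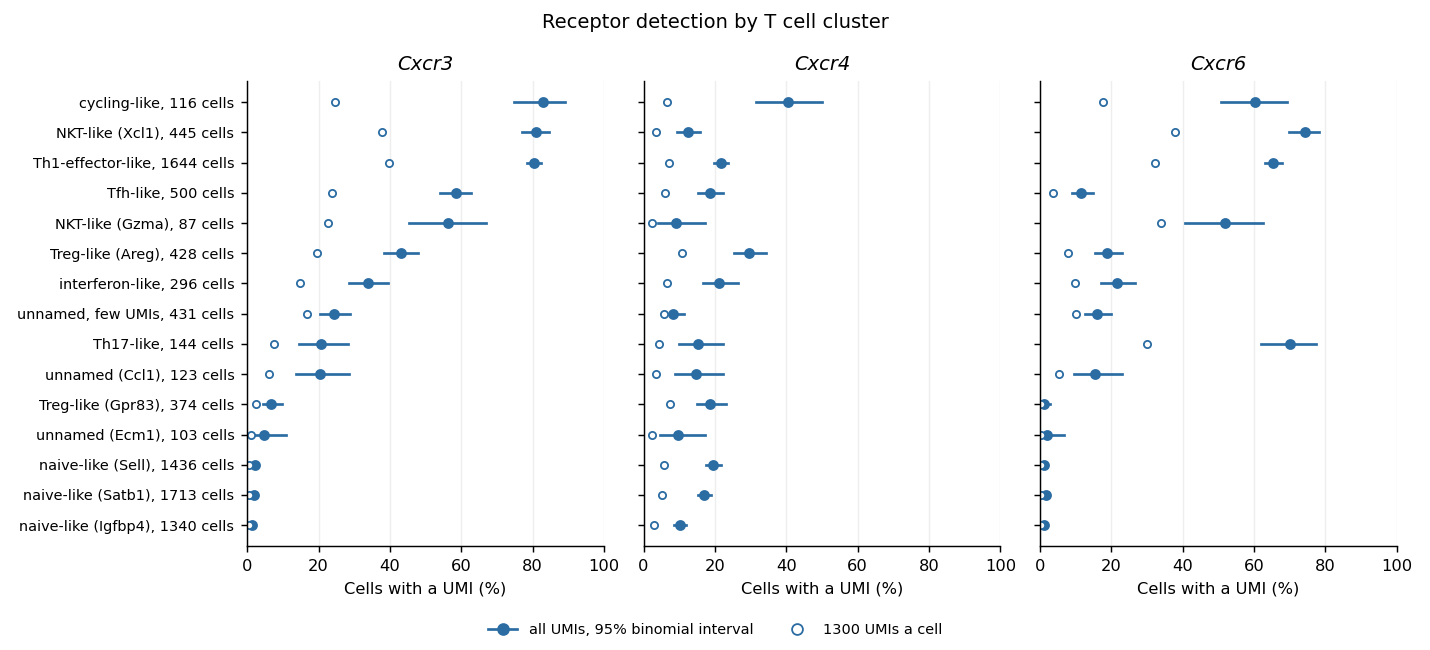
Share of cells with at least 1 UMI of each receptor (x axis, %) in the 15 T cell clusters (y axis, with cell numbers), with 95% exact binomial intervals for all UMIs and open points for 1300 UMIs a cell. Cxcr3 and Cxcr6 are both high in Th1-effector-like (80.4% and 65.4%) and NKT-like (Xcl1) cells (80.9% and 74.2%) and part in Tfh-like (58.4% and 11.6%) and Th17-like cells (20.8% and 70.1%).

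The joint detection of Cxcr3 and Cxcr6 was also set against the product within clusters. In Th1-effector-like cells both were found in 52.3% ± 7.43 (n = 12 samples with at least 10 such cells) against a product of 51.2% (ratio 1.02, above in 10 of 12), and 1.05 after thinning. The ratios were 1.04 in NKT-like (Xcl1), 1.18 in Tfh-like, 0.997 in Th17-like and 0.898 in Treg-like (Areg) cells. They were higher in interferon-like cells, at 1.59 (14.3% ± 14.2 against 9%, above in 6 of 10 samples; 1.58 after thinning), and in the unnamed cluster of few UMIs, at 1.98 (8.69% ± 4.60 against 4.38%, above in 8 of 8; 1.65 after thinning). Within Th1-effector-like cells the tissues differed little: Cxcr6 was detected in 67.9% ± 7.30 in BAT, 65.9% ± 3.38 in SAT and 64.1% ± 2.58 in VAT (n = 4 each), and Cxcr3 in 71.1% ± 13.1, 80.2% ± 1.86 and 81.2% ± 1.59. No spleen sample held 10 such cells. Th1-effector-like cells made up 38.6% ± 12 of Foxp3-zero cells in SAT, 38.9% ± 12.1 in VAT, 6.29% ± 1.09 in BAT and 0.72% ± 0.44 in spleen, and naive-like cells 23.4% ± 7.75, 24.7% ± 5.75, 79.1% ± 8.88 and 79.7% ± 1.99. The part of this composition in the tissue differences of Cxcr3 and Cxcr6 was not tested. With all UMIs, Cxcr4 in naive-like (Satb1) cells was 22% ± 1.45 in BAT (20.1% to 23.5%) against 13.3% ± 5.05 in spleen (5.75% to 16.7%). The other naive-like clusters are not given here by tissue, and no share of all genes without overlap was computed within clusters.

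The 2 Treg-like clusters are described side by side, with no test. Treg-like (Areg) cells had Cxcr3 in 41.0% ± 15.6, Cxcr4 in 32.1% ± 18 and Cxcr6 in 17.2% ± 10.9 (n = 11 samples), and Treg-like (Gpr83) cells in 8.76% ± 6.46, 23.8% ± 12.6 and 0.97% ± 1.92 (n = 13). Of Foxp3-positive cells the Areg cluster held 75.6% ± 8.00 in VAT, 70.3% ± 15.6 in SAT, 29.0% ± 6.42 in BAT and 19.3% ± 9.46 in spleen. The Gpr83 cluster held 11.6% ± 3.43, 13.2% ± 5.74, 32.1% ± 4.56 and 66.6% ± 11.4 of them in the same order. The remaining cells lay outside both clusters and were most frequent in BAT. When Foxp3-positive cells had to lie in a Treg-like cluster, the mean Cxcr3 share in BAT was 24.9%, against 19.5% for all of them. Within the Areg cluster Cxcr3 was found in 55.5% ± 15.7 in SAT and 34.4% ± 2.74 in VAT (n = 4 each), with overlap.

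Among CC chemokine receptors, of 10 tested, 7 were higher and 2 lower in Foxp3-zero cells of SAT than of spleen, with a median log2 fold change of 3.12 against -0.01 over all genes, of which 21.3% were higher and 40.3% called either way. The shares of all genes to set beside the counts below are these for SAT, 19.7% and 37.2% for VAT, and 4.80% and 8.15% for BAT. Ccr10 rose by 4.05 ± 0.94 (from few UMIs in spleen), Ccr2, the CCL2 receptor, by 3.71 ± 0.21 and the atypical receptor Ccrl2 by 3.33 ± 0.43. In VAT 6 were higher and 1 lower (median 2.36), among them Ccr2 (3.96 ± 0.20) and Ccr8 (3.80 ± 0.65). In BAT 2 of 10 were higher, among them Ccr2 (1.51 ± 0.28). Of the other CXC and related receptors only Cx3cr1, the fractalkine receptor, was abundant enough to test, at 4.38 ± 0.68 in SAT and 5.12 ± 0.60 in VAT. Of 7 ligands of the 3 receptors 2 were tested, and Cxcl10, a CXCR3 ligand, was higher in SAT (3.23 ± 0.47) and VAT (1.83 ± 0.55).

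Downstream of the receptors, 7 of 15 G protein, kinase and Rac genes were higher and 0 lower in SAT and likewise in VAT, with small medians (0.15 and 0.13). Called either way, these 7 of 15 are near the share of all genes (40.3% in SAT and 37.2% in VAT). Of all genes 21.3% in SAT and 19.7% in VAT were called higher. Gng2, a G protein gamma subunit, rose by 2.36 ± 0.15 in SAT. Of 13 desensitisation genes, which switch receptor signals off, 4 were higher and 3 lower in SAT and 5 and 2 in VAT, with medians of -0.01 and -0.05, against 21.3% higher and 40.3% either way over all genes in SAT. Rgs1 rose by 3.06 ± 0.23 and Rgs2 by 2.69 ± 0.20 in SAT, and Rgs10 fell by 1.5. Among 14 residency and egress genes, 7 were higher and 3 lower in SAT, 8 and 2 in VAT, and 4 and 0 in BAT. Itga1, the collagen-binding integrin alpha chain, rose by 5.81 ± 0.29 in SAT, 4.79 ± 0.33 in VAT and 3.35 ± 0.42 in BAT, and Cd69 by 2.00 ± 0.14, 1.96 ± 0.14 and 1.19 ± 0.15. Of 19 lineage factors 12 were higher and 4 lower in SAT, 13 and 5 in VAT, and 9 and 1 in BAT (40.3%, 37.2% and 8.15% of all genes either way), with Tbx21, the Th1 factor, at 4.07 ± 0.23, 3.71 ± 0.23 and 1.46 ± 0.33.

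Genes of stress and tissue dissociation moved with every comparison of fat and spleen. Of 15 tested, 13 were higher and 0 lower in SAT, 12 and 0 in VAT and 12 and 1 in BAT, with medians of 2.20, 2.08 and 1.1, where 21.3%, 19.7% and 4.80% of all genes were higher. Fosb was higher by 5.89 ± 0.30, 5.59 ± 0.31 and 3.79 ± 0.40, and Hspa1a by 3.60 ± 0.41, 4.25 ± 0.38 and 5.08 ± 0.36. Their part in the receptor differences, Cxcr4 included, was not tested.

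Between the classes, 9.02% of all genes were higher in Foxp3-positive cells and 16.9% were called either way, to be set beside the counts that follow. Of the CC receptors, 4 of 5 tested were higher and 1 lower in Foxp3-positive cells (median 1.37), led by Ccrl2 (2.14 ± 0.31), Ccr4 (1.81 ± 0.25) and Ccr2 (1.37 ± 0.15), while Ccr7, the lymph node homing receptor, fell by 1.12. Of 13 desensitisation genes 6 were higher and 1 lower, among them Rgs16 (2.69 ± 0.32) and Rgs1 (1.41 ± 0.20). Of 18 lineage factors 4 were higher and 6 lower, with Prdm1 at 1.41 ± 0.18, Id2 at -1.35 ± 0.14 and Tcf7 at -1.47 ± 0.09. Of 15 stress genes 8 were higher and 0 lower (median 0.57), led by Nr4a1 (1.46 ± 0.17) and Dusp1 (1.31 ± 0.10). A link between these genes and the higher Cxcr4 of Foxp3-positive cells was not tested.

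The genes whose levels in Foxp3-zero sums were most like each receptor were ranked by Pearson's r of log2(CPM + 1), centred per experiment, over the 16 sums and 5281 genes. For Cxcr3 they were AU020206 (0.997), Hopx (0.995), Adgre5 (0.993), Il2rb (0.992) and Maf (0.992), and Cxcr6 stood at rank 16 (0.988). For Cxcr6 they were Lyst (0.989), Unc119, Cd44 and Cxcr3 (each 0.988) and Ly6c2 (0.987). For Cxcr4 they were Arid5a (0.882), 2900060B14Rik (0.846), Siah2 (0.836), Tsc22d3 (0.832) and Cblb (0.821), and Cxcr3 and Cxcr6 stood at ranks 565 (0.458) and 456 (0.484). The points share tissue, library and dissociation, and the values are given as a description.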

How the data were processed

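Single-cell RNA libraries (10x 3' v3) of sorted CD4 T cells were deposited as raw UMI counts per gene and hashtag, made by the authors with Cell Ranger 6.1.0, per the file headers, on mm10. The submitters' processing notes also name Seurat and bcl2fastq. The steps computed here used Python 3.11.15, scanpy 1.11.5, scipy 1.17.1, R 4.3.3 and edgeR 4.0.16, with DESeq2 1.42.0 as an alternative. Cells were kept from 500 detected genes and 1000 UMIs upward when mitochondrial UMIs stayed below 10%. Hashtag calls gave 3263 and 6170 single cells in experiments 1 and 2. Barcodes with several hashtags (286 and 1169), 406 and 1506 unresolved and 30 and 159 negative cells were left out, and doublets within a hashed sample were not called. Samples were grouped by the tissue their label gives to each hashtag. Raw counts were summed per hashed sample and Foxp3 class (at least 20 cells a sum), filtered with edgeR's filterByExpr at a minimum count of 10, normalized by TMM and tested with edgeR's quasi-likelihood test, with Benjamini-Hochberg adjustment over all genes and a threshold of 0.05. Hashed samples are the replicates. Since the labels do not name the mice, p-values measure the spread between these samples. The members and gene lists were chosen with earlier results of these data known. Named genes were the 3 receptors, up to 4 called genes of each list with the largest change, and the 5 genes most like each receptor (mean CPM of at least 20). Genes named beyond that were chosen after their values were seen. Alternatives were DESeq2, library size only, no filter on low counts, thinning to 1300 or 2000 UMIs, a stricter hashtag call, other cell minimums, a replicate block and leaving out each sample. Counts were simulated with 1 fixed dispersion for all genes, not estimated from these data, and with no effect of experiment or hashed sample. For SAT against spleen the Foxp3-zero fit (10249 genes) recovered 71% of 2-fold and 100% of 4-fold changes. The Foxp3-positive fit (5315 genes) recovered 38% and 99% for the same contrast, and the class fit (7728 genes) 95% and 100%. The other tissue contrasts, those with BAT among them, were not simulated. The values of some genes are not reported here.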

Additional observations from a re-analysis of the deposited data

Results flagged for a closer look

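In Foxp3-zero cells of spleen the Cxcr3 share of replicate 2 (9.84%) stood apart above the other 3 samples (6.21%, 6.45% and 6.68%) by more than the gap expected within a group of 4. In the same cells the Cxcr6 level of spleen replicate 1 (8.23 CPM) stood apart below the others (22.7 to 24.4 CPM). Chance gives such a gap in about 1 in 20 groups, and 48 groups of 4 were checked. The Cxcr3 difference between Foxp3 classes differed between VAT and spleen by a log2 value of -1.35 (edgeR's quasi-likelihood test, adjusted p = 0.0101).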

How the results depend on the processing

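Tissue ranges without overlap numbered 16 of 36 with all UMIs and 19 after thinning. With 1 sample left out they numbered 16 to 18, a count that cannot fall when a sample is only removed. Leaving out 1 sample gave 15 of 15 Foxp3-zero samples with Cxcr3 and Cxcr6 above the product, and 6 to 7 Foxp3-positive ones. These counts were fixed by the full ones, since the remaining samples keep their values, and they are no check. The Foxp3-positive samples above the product were 4 under the stricter hashtag call. They were also 4 when Foxp3-positive cells had to lie in a Treg-like cluster. Foxp3-positive samples without any Cxcr6 UMI could not lie above the product. Receptor calls numbered 13 in Foxp3-zero cells (12 to 14 with a sample left out), 6 in Foxp3-positive cells (5 to 8; 2 after thinning, where Cxcr3 alone was tested), 2 between the classes (2 in each) and 5 in the tissue-wise class fit (3 without VAT replicate 2 to 9 without spleen replicate 2; 2 with DESeq2, 2 after thinning). Calls over all genes and contrasts were 15944 in Foxp3-zero cells (14648 to 16344; 5901 after thinning), 1252 in Foxp3-positive cells (954 to 1308; 830 under the stricter hashtag call, 507 after thinning), 1304 between the classes (1119 to 1317; 1968 without a filter, 488 after thinning, 2384 with library sums) and 2768 in the tissue-wise class fit (2333 to 2798; 1151 after thinning). The shares of all genes called in each contrast, to set beside the receptor calls, are given with the comparisons above. The Cxcr3 class difference of VAT against spleen turned to 0.50 after thinning, where 4 Cxcr3 UMIs remained in the Foxp3-positive sums of spleen. With the replicate block, receptor calls were 13 and 6, and gene calls 15565 and 1192, in Foxp3-zero and Foxp3-positive cells. The labels do not say whether same-numbered samples are paired. Deviations of same-numbered samples correlated at -0.148 to 0.099 in Foxp3-zero and -0.071 to 0.089 in Foxp3-positive cells. These values cannot decide it, since each deviation comes from only 2 samples of a tissue in an experiment. Few Foxp3-positive cells, above all in BAT, limit the precision of that class.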
